A study of Mus musculus with 1119 samples.

Results

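The 10 genes described here encode proteins that build, cross-link or modify the hair, or that were seen in the same hair-forming cells: Tchh, Padi1, Padi3, Tgm3, Tgm6, Krtap8-1, S100a3, Mt4, Stra6 and Urah. They are a named list, chosen by measured values of these same data, namely their TPM across the cell types and their joint expression within cells of the hair bulb at postnatal day 30 (P30). Each of the 10 had 1 row among the 46517 gene rows of all 3 deposited tables. The data are single-cell RNA-seq of mouse back skin by Smart-seq2, a plate method that reads the full length of transcripts in cells of 6 annotated types. Each deposited column is 1 cell. Values are TPM, the transcripts of a gene per 1000000 transcripts of the cell, which are set per length of transcript, so levels of different genes can be compared.

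The cells came from 3 kinds of mice. Cells of P21 to P27 were from mice of mixed sex carrying Lgr5-eGFPiresCreER and R26-tdTomato, in which Lgr5 drives the reporter and the inducible Cre. The resting follicle at P21 gave 39 bulge stem cells and 71 hair germ cells. Early growth gave 73 hair germ cells aged P23 to P24, 16 hair germ cells aged P25 to P27, and 3 plates of 55, 76 and 68 matrix cells of the later age. The P30 hair bulb, with 74 to 81 cells on each of 5 plates, came from Lhx2-GFP (CD1) mice of mixed sex, and the authors annotate all of its cells as matrix cells. The P30 dermal papilla, with 77 to 87 cells on each of 4 plates, came from male mice with K14-H2BGFP and LEF1-RFP. The sort gates differed as well. Integrin α6, integrin b1 and P-cadherin were used for both epithelial sets, with CD34 in both and Sca-1 at P30, and integrin α9 and CD117 for the papilla. No label names the animals, so each group counts as 1 sample, no test between groups was made, and age, strain and gate cannot be told apart between P30 and the earlier cells. Plates are shown as a technical spread only. TPM keeps no read depth, so depth is unknown. A gene is called seen in a cell where its TPM was 1 or more. The number of genes seen per cell had a median of 7392.5 in the P30 bulb, 5516 in the P25 to P27 matrix and 5800 in the papilla.

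Markers of matrix keratinocytes, at least 3 of 9, were seen in 97.99% of P25 to P27 matrix cells, 91.9% of P30 bulb cells and 7.12% of papilla cells. Markers of pigment cells stood apart in the P30 bulb. At least 3 of 11 were seen in 69.8% of P30 bulb cells, against 3.02% of P25 to P27 matrix cells and 10.4% of papilla cells. The summed level of the 11 markers ran from 0 to 92.4 TPM in the P25 to P27 matrix, with a median of 2.78. In the P30 bulb it ran from 0 to 19552, with a median of 364.9. Plate P2-1 of the P30 bulb also stood apart, with higher shares of cells for several of the 10 genes.

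A hair is made by matrix cells at the base of the follicle, which divide around the dermal papilla and then differentiate into concentric layers. The outermost of these layers form the inner root sheath, which moulds the hair, and the inner ones form the shaft, with its cuticle, cortex and central medulla. Trichohyalin, the product of Tchh, fills cells of the inner root sheath and the medulla. There its arginines are converted to citrulline by peptidylarginine deiminases (the Padi genes), and transglutaminases (the Tgm genes) then join proteins by covalent bonds. The cortex is built from hair keratins embedded in small keratin-associated proteins such as that of Krtap8-1. S100a3 encodes a calcium-binding protein of the hair cuticle that is itself a substrate of Padi3. Mt4 encodes a metallothionein of stratified epithelia, Stra6 a membrane receptor for retinol-binding protein, and Urah an enzyme that hydrolyses hydroxyisourate in the breakdown of urate.

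On the GENCODE M21 annotation of GRCm38, the assembly also named mm10, the transglutaminase pair and the deiminase pair are each neighbours. Tgm3 lies at chr2:130012349-130050399 and Tgm6 at chr2:130112416-130154232, both on the plus strand and 62016 bases apart. Padi3 at chr4:140785365-140810648 and Padi1 at chr4:140812983-140845778 lie on the minus strand, 2334 bases apart. Tchh (chr3:93442330-93449077, plus strand) and S100a3 (chr3:90560578-90602702, plus strand) share a chromosome at a distance of 2839627 bases. Krtap8-1 is a gene of 1 exon and 574 bases on the minus strand at chr16:89487379-89487952. Mt4 (chr8:94137197-94139031), Stra6 (chr9:58063788-58153996) and Urah (chr7:140835018-140837966) lie on the plus strand. S100a3 overlaps the annotated span of S100a2, which was not seen in any P30 bulb cell, and Stra6 overlaps Ccdc33. Predicted genes or a microRNA overlap Tchh, Padi1, Tgm3 and Urah. No source used here says that strand was kept, so reads of overlapping genes could have been shared.

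RefSeq promoter windows for GRCm38.p6, from 250 bases before to 50 after a start, were found for all 10 genes, 18 windows in all. The 100 bases before the start are printed for 5 of them. The first pair, Tgm3 and Tgm6, were seen in the same cells more closely than any other pair. Tchh, Krtap8-1 and Mt4 follow because the level of Tchh was hardly correlated with either of the others over P30 bulb cells (Spearman rho 0.06 and -0.02). Capitals mark TATAAA, the letters of a TATA box, in the direction of the gene. The stretches are, in this order, chr2:130012240-130012339 (plus), chr2:130112316-130112415 (plus), chr3:93442230-93442329 (plus), chr16:89487953-89488052 (minus) and chr8:94137104-94137203 (plus).
Tgm3: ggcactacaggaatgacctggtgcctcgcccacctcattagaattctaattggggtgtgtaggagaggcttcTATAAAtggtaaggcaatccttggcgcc
Tgm6: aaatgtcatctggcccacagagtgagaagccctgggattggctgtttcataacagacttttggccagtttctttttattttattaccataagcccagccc
Tchh: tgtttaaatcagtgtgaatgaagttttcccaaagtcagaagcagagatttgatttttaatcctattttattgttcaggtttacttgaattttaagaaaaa
Krtap8-1: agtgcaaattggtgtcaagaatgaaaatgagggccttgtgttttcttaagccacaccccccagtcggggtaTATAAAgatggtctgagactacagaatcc
Mt4: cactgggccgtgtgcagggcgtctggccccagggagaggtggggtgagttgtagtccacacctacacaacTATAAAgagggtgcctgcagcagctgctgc

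TATAAA began 28 bases before the start in Tgm3, 29 before in Krtap8-1 and 30 before in Mt4. It also stood 52 bases before 1 of the 4 starts of S100a3. On either strand it is held by 13.6% of all 32851 windows, and by 1.99% in the direction of the gene between 40 and 20 bases before the start. Neither window of Tgm6 held it, nor that of Tchh, so the neighbouring Tgm3 and Tgm6 differ in these letters. Searched on both strands, the homeobox core TAATTA (5.29% of all windows) was in none of the 18 windows. The TCF/LEF letters CTTTGAT (3.73%) were in 1 window each of S100a3 and Stra6, and the GATA letters AGATAA (11.2%) in 1 each of Tchh and Stra6. No match of one motif overlapped a match of another. These matches describe letters and are not evidence of binding.

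Of the 10 genes, 9 were seen in a larger share of the P30 bulb than of any earlier group, and Urah was the exception. Tchh, the structural protein, was seen in 54.2% of P30 bulb cells (exact Clopper-Pearson 95% interval 49.04 to 59.2, which covers the counting of cells only). Its level per cell ran from 0 to 1629 TPM, with a median of 1.94 and a mean of 69.9. In cells where it was seen the median was 56.7, so the level was spread over the whole range and not around 1 value. In earlier cells it was in 0 of 16 hair germ cells of P25 to P27, and otherwise in 1.41% of the P21 hair germ up to 7.69% of the P21 bulge, and in the P25 to P27 matrix it was 5.03% (2.44 to 9.05). These early shares overlap in their intervals.

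Papilla cells, which are fibroblasts and form no hair layer, gave Tchh in 29.1% of cells (24.3 to 34.2), though at a mean of only 1.49 TPM and a highest value of 26.7. At a TPM of 10 or more the shares were 38.02% in the P30 bulb and 2.67% in the papilla. Krtap8-1 was likewise seen in 39.1% of P30 bulb cells (34.2 to 44.1) and 14.8% of papilla cells (11.2 to 19.1), with means of 57.4 and 3.95 TPM. At 10 TPM or more the shares were 32.6% and 10.4%. It was seen in none of the earlier cells, and a count of 0 in the P25 to P27 matrix allows a share of up to 1.51% (3 counts over the total, as for every count of 0 below; the exact interval reaches 1.84%). Tchh at a low level in a single P30 cell is thus within the range that papilla cells also show.

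The papilla held other hair transcripts too. Of 86 genes in the lists of shaft keratins, keratin-associated proteins and inner root sheath, 15 were seen in at least 5% of papilla cells, and 5 of these in a larger share of papilla than of bulb cells. Krt31, a cortex keratin, was seen in 18.1% of papilla cells (14.1 to 22.6) and 9.90% of bulb cells (7.10 to 13.3). Krtap11-1 was seen in 10.98% (7.85 to 14.8) and 3.91% (2.203 to 6.36). Within the papilla Tchh and Krtap8-1 were seen together in 23 cells, Tchh alone in 75 and Krtap8-1 alone in 27, with a Spearman rho of 0.12. Krtap8-1 was in 23.5% of the papilla cells with Tchh and in 11.3% of those without it. The 2 tables come from different mice and plates, and the part of free RNA or of stray keratinocytes in these papilla values was not tested.

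The deiminases differed in how common they were. Padi3 was seen in 79.9% of P30 bulb cells (75.6 to 83.8), close to Urah and Stra6, with a lowest level of 0, a median of 47.01 and a highest of 579 TPM. At 10 TPM or more the shares were 69.3% for Padi3, 71.6% for Urah and 71.1% for Stra6. By plate the share of Padi3 ran from 66.7% to 91.4%. In earlier cells it was seen in 2 of 89 early growth hair germ cells and in none of the P21 or P25 to P27 matrix cells. Padi1, its neighbour on chromosome 4, was seen in 27.1% of P30 bulb cells (22.7 to 31.8) at a mean of 3.78 TPM, and in 1 earlier cell, of the P25 to P27 matrix. The highest Padi1 level, 78.6, lay below the 90th percentile of Padi3, which was 230 TPM. Papilla cells gave 5.34% for Padi3 and 0 for Padi1, which allows a share of up to 0.89%. Of the other deiminases, Padi4 was seen in 51.3% of P30 bulb cells and 1.51% of matrix cells, and Padi2 in 4.17% and 0%.

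Tgm3 and Tgm6 were close in their shares but not in their levels. Tgm3, which encodes an epidermal and follicular transglutaminase, was seen in 59.9% of P30 bulb cells (54.8 to 64.8), with a median of 6.76 and a highest level of 210.4 TPM. Tgm6 was seen in 51.8% (46.7 to 56.9), with a median of 2.67 and a highest level of 281.1. The means were 18.9 and 32.4 TPM. Earlier cells held a little Tgm3, up to 4.52% (2.09 to 8.41) of the P25 to P27 matrix, and no Tgm6 at all. In the papilla the shares were 2.08% and 0.593%. Another transglutaminase, Tgm1, which acts in cornification, was seen in 37.8% of P30 bulb cells and 17.2% of papilla cells. Tgm5 went the other way, with 53.8% of P25 to P27 matrix cells and 0.521% of P30 bulb cells.

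S100a3 was seen in 65.4% of P30 bulb cells (60.4 to 70.1), with a median of 19.8 and a highest level of 702 TPM. In the other types the share ran from 7.54% in the P25 to P27 matrix to 14.6% in the early growth hair germ, and these intervals overlap. Values above 0 but under 1 TPM were common for this gene. Counted above 0, the share was 71.6% in the P30 bulb, and in the P21 bulge it was 25.6% against 7.69% at 1 TPM or more. Among its relatives S100a8, a calcium-binding protein of activated keratinocytes, was seen in 17.7% of P30 bulb cells, 27.3% of papilla cells and none of the matrix cells. S100a10, S100a11 and S100a16 were in 91.1% to 93.8% of P30 bulb cells and 86.4% to 97.5% of matrix cells.

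Mt4 had a level that depended on few cells. In the P30 bulb it was seen in 27.3% of cells (22.9 to 32.1), with a median of 40.8 TPM in those cells and a highest level of 892. Plate P2-1 gave 56.8% of cells, and the other 4 plates 17.1% to 22.97%, and without P2-1 the share was 19.5%. In the P25 to P27 matrix only 20 cells held Mt4 (10.1%, 6.25 to 15.1), but at a median of 353.7 TPM in those cells and up to 7951. That 1 cell carried 46.5% of all Mt4 TPM of the matrix, and the matrix mean was 85.8 with it and 46.1 without it. The mean of the P30 bulb was 22.8. So Mt4 was in a larger share of P30 cells and had a larger mean in the matrix.

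The 20 matrix cells with Mt4 often held epidermal genes. Krt1, a keratin of the suprabasal epidermis that was picked after its values were seen, was seen in 12 of these 20 cells (60%, 36.1 to 80.9) and in 10 of the others (5.59%, 2.71 to 10.03). At least 3 of 17 cornification genes were seen in 10 of the 20 cells and in 12.3% of the others. In the P30 bulb Krt1 was seen in 0.952% of the cells with Mt4 and in 1.08% of those without it. At least 3 of the 17 cornification genes were in 20% and 8.96% of them, the same direction as in the matrix. Ivl was in 72.4% and 44.8% of them and Lor, a cornified envelope protein, in 34.3% and 15.4%. In the matrix Ivl was in 20% and 6.15% but Lor in 5% and 5.59%. In the P30 bulb Krt10 (39.05% and 24.7%) and Sbsn (25.7% and 15.1%) also had larger shares with Mt4, and the rest of the 17 were rare and went in both directions. The part of plate P2-1 in these P30 bulb shares was not tested. Mt4 also went with Krtap8-1 there, which was seen in 69.5% of the cells with Mt4 (59.8 to 78.1) and 27.6% of those without (22.4 to 33.2). No matrix cell held Krtap8-1.

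Stra6 had an early peak besides that of P30. It was seen in 1 of 71 hair germ cells at P21, in 35 of 73 at P23 to P24 (47.9%, 36.1 to 59.96) and in 0 of 16 at P25 to P27, which allows a share of up to 18.8%. In the P25 to P27 matrix the share was 12.6% (8.30 to 17.98), with 7.35% to 16.4% by plate. In the P30 bulb it was 75.3% (70.6 to 79.5). The mean was 14.3 TPM at P23 to P24, 3.14 in the P25 to P27 matrix and 164.7 in the P30 bulb, the highest of the 10 genes there. The P30 bulb ran from 0 over a median of 100.25 to a highest cell at 1617. All P23 to P24 cells sat on 1 plate, which cannot be told apart from their age. Within that plate cells with Stra6 had more genes seen, at a median of 7543 against 6660. Lef1, a factor of WNT responses picked after its values were seen, was in 82.9% of the cells with Stra6 (66.4 to 93.4) and 44.7% of the others (28.6 to 61.7).

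Among other retinoid genes at P23 to P24, Dhrs3, a retinaldehyde reductase, was seen in 18 of the 35 cells with Stra6 and in 18 of the 38 without it. The receptor Rara was in 30 and 22 of them, and Rdh10, a retinol dehydrogenase, in 7 and 3. Aldh1a3, which makes retinoic acid and was picked after its values were seen, was in 64.8% of P30 bulb cells at a mean of 90.8 TPM and in 1.51% of matrix cells, and its rho with Stra6 over P30 bulb cells was 0.71. The receptor Rarg and its partner Rxra were in over 90% of cells of both groups. Of 13 retinoid genes compared between the groups, 5 were higher by 1 or more in the P30 bulb on the log2 scale explained below, and 1 was lower, beside 8.31% higher and 4.2% lower of all genes compared.

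Urah was the only one of the 10 already common in the resting follicle. Its share was 92.3% (79.1 to 98.4) in the P21 bulge, 87.3% in the P21 germ, 93.3% in the early growth germ, 82.9% in the P25 to P27 matrix and 78.9% (74.5 to 82.9) in the P30 bulb. Neighbours in this order overlap in their intervals. Mean levels were, in the same order, 147.57, 143.98, 104.95, 88.8 and 52.9 TPM. The papilla stood apart at 2.67% of cells (1.23 to 5.01) and a mean of 0.422 TPM. Xdh, which makes urate, was seen in 65.1% of P30 bulb cells and in 72.7% of papilla cells, and Uox, which acts on urate just before Urah, in 18.2% and 0.297%. Uox was not seen in any P25 to P27 matrix cell.

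**Figure D1:**
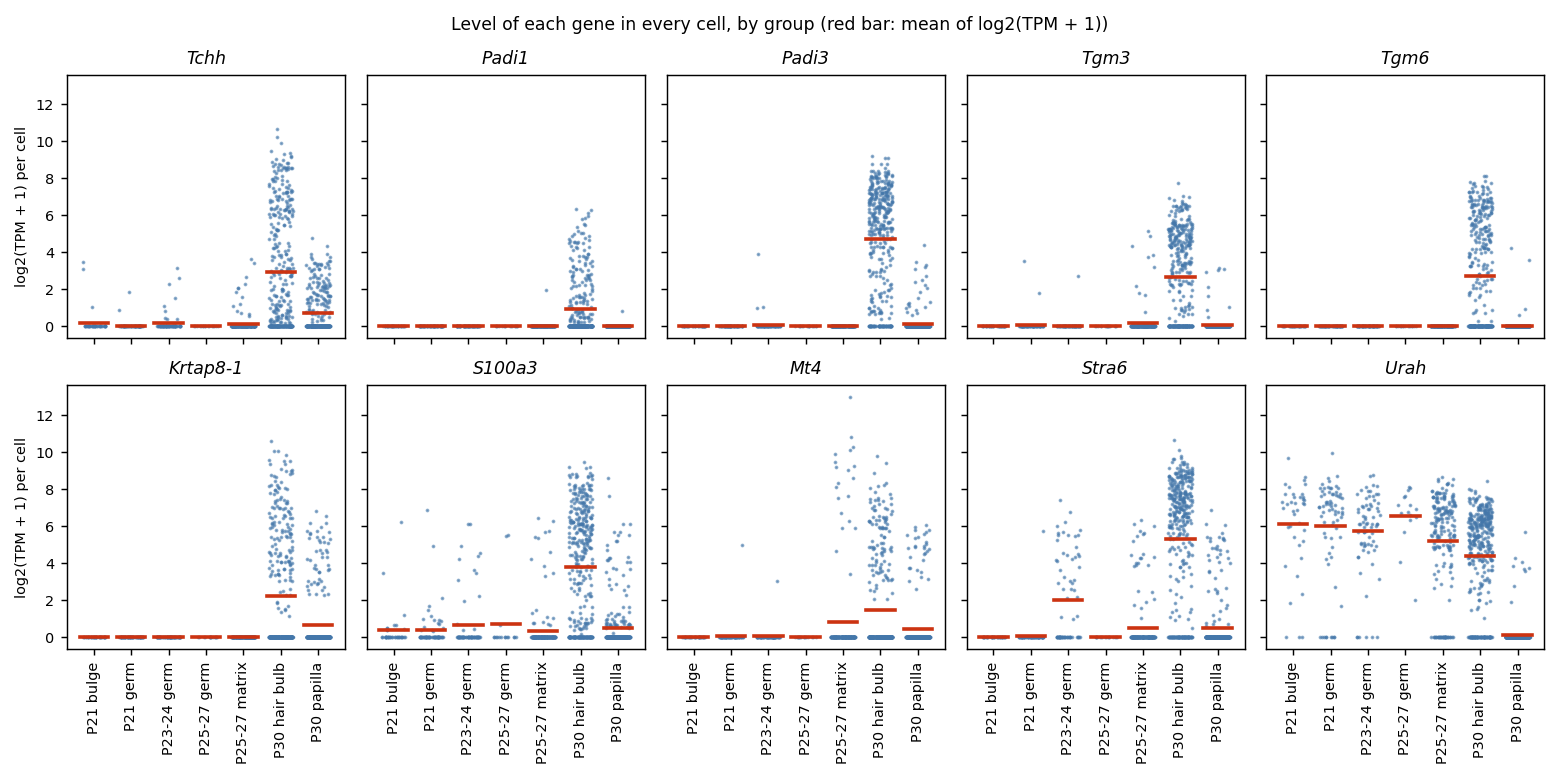
Level of each of the 10 genes in every cell. The x axis gives the 7 groups, the y axis log2(TPM + 1), each point is 1 cell and the red bar is the mean of the group; Urah is high from P21 on, Stra6 appears at P23 to P24, and the other genes are spread from 0 upward in the P30 bulb.

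The comparison of the P30 bulb with the P25 to P27 matrix asks how the later matrix differs from the earlier one. Sizes are differences of mean log2(TPM + 1), and a difference of 1 or more was counted. Of 13353 genes seen in at least 10% of cells of 1 group, 8.31% were higher by that much in the P30 bulb and 4.2% lower. All 10 genes passed this filter, 7 were higher by 1 or more and none was lower, and their median difference was 2.62 against 0.24 for all genes. Of the other 3, Padi1 and Mt4 pass 1 under other settings given below. These values helped to choose the genes and are given as a description. Tchh, Padi1, Padi3, Tgm3, Tgm6, Krtap8-1 and S100a3 passed the filter only through the P30 bulb, where they are higher. Of the 10, only Urah had a matrix mean of log2(TPM + 1) above 1, so only Urah could be lower by 1. Stra6 (4.77) and Padi3 (4.72) differed the most, followed by S100a3 (3.49), Tchh (2.81), Tgm6 (2.71), Tgm3 (2.53) and Krtap8-1 (2.23). The other 3 were under 1 in size, namely Padi1 at 0.90, Mt4 at 0.65 and Urah at -0.78.

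The scale of TPM bears on the smallest of these. Ribosomal RNA rows took a median of 76.4% of the TPM of a P30 bulb cell and 66.9% of a matrix cell. When spike-in, ribosomal and mitochondrial rows were removed and the rest rescaled to a sum of 1000000, the median of all genes moved from 0.24 to 0.60. Padi1 was then at 1.54 and Mt4 at 1.04, so that 9 of the 10 were at 1 or more. The 7 genes remained higher by 1 or more relative to that median, and Urah stood at -1.28 relative to it, against -1.02 before. Calls were 66.4% higher with the values as deposited and 84.7% higher after rescaling. For Mt4 the log2 ratio of mean TPM was -1.87, so its direction depended on whether the mean of logs or of TPM was taken.

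Lists of related genes were counted in the same comparison, beside 8.31% higher and 4.2% lower of all genes compared. A gene that passed the filter only through the P30 bulb, such as Krt75 (seen in 6.03% of matrix cells), could hardly be counted as lower. This holds for the retinoid list above as well, so the counts of the lists are a description. Of 9 genes of the inner root sheath with enough cells, 6 were higher and 1 lower, with Krt28, Krt27 and Krt25, its keratins, at 2.26, 2.04 and 2.19, and Gata3, a factor of that layer picked after its values were seen, at -3.67. For the medulla, 2 of 4 were higher, Krt75 (4.07) and Foxq1 (3.33), while Krt17 was at -0.96. Only 5 of 14 shaft keratins passed the filter, with Krt35 and Krt83 both at 1.21, and 3 of 56 other keratin-associated protein genes, with Krtap15 at 2.08. A further 34 keratin-associated protein genes were not seen in any P30 bulb cell. Among transcription factors 11 of 21 were higher and 3 lower, with Dlx3 at 4.69 and Msx2 at 3.30. The cycle list had 11 of 16 higher. Of 12 basal and outer root sheath genes none was higher and 8 were lower, with a median of -2.53. Of 7 other cross-linking genes 3 were higher and 1 lower. The list of metal and calcium binding genes had 2 higher and 1 lower of 12, purine genes 1 each of 5, and epidermal genes 1 and 3 of 6. The counts of the metal and purine lists are too small to set apart from the shares over all genes. Those of the medulla, shaft keratin, keratin-associated protein, cross-linking and epidermal lists rest on 3 to 7 genes each, and nothing is read from them either.

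Within the P30 bulb most pairs of the 10 genes were correlated over cells, and all 10 were seen together in 14 cells. Over these cells the 45 pairs had a median Spearman rho of 0.52, from -0.02 for Tchh with Mt4 to 0.83 for Tgm3 with Tgm6. A rho of 0.5 or more was reached by 24 pairs, and by 9 pairs within each of the 5 plates. Correlations over cells share library preparation and the scale of TPM, and are given without a test. The rho of each gene with the number of genes seen per cell was between -0.06 (Tchh) and 0.23 (Mt4).

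Tgm3 and Tgm6 formed the tightest pair, with 49% of cells holding both, 42 cells with Tgm3 alone and 11 with Tgm6 alone. By plate their rho ran from 0.75 to 0.88. Padi3 held both of them almost as a subset. Padi3 was in 99.5% of the cells with Tgm6 and 96.1% of those with Tgm3, while Tgm6 was in 64.5% of the cells with Padi3. Padi3 was thus the wider and Tgm6 the narrower of the 3. In the same way 98.1% of the cells with Padi1 held Padi3, and 33.2% of the cells with Padi3 held Padi1. Stra6 was in 97.1% of the cells with Padi1 and in 98% of those with Krtap8-1. The cuticle gene S100a3 had rho of 0.74 with Padi3, the enzyme that citrullinates it, 0.73 with both transglutaminases and 0.72 with Urah. Among the cells with under 3 pigment markers the rho of S100a3 was 0.33 with Padi3, 0.57 with Tgm3, 0.46 with Tgm6 and 0.52 with Urah.

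Against all genes these values can be placed. Tgm6 reached a rho of 0.5 with 6 of the other 9 genes and with 1.73% of 12796 genes seen in at least 10% of P30 bulb cells. For Tgm3 the numbers were 6 and 1.79%, for S100a3 7 and 1.68%, for Padi3 7 and 1.6%, for Stra6 7 and 1.29%, for Urah 6 and 1.08%, and for Tchh 5 and 0.813%. Krtap8-1 reached it with 2 of 9 (0.0781% of all genes), Padi1 with 2 (0.0156%) and Mt4 with none (0%). Co-expression helped to choose the genes, so nothing is read from these counts.

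**Figure D2:**
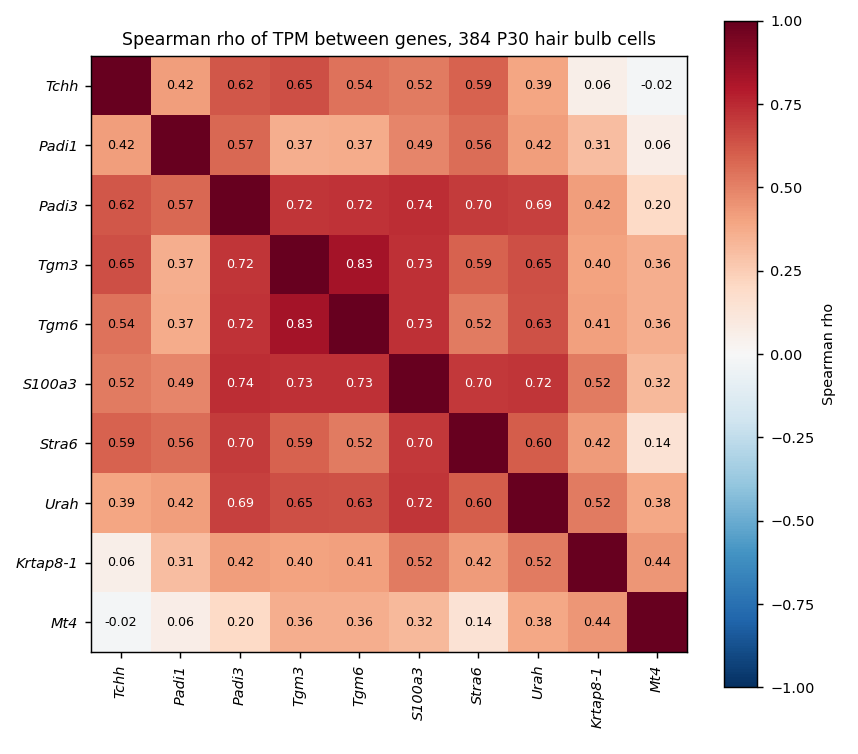
Spearman rho of TPM for each pair of the 10 genes over the P30 hair bulb cells, on a colour scale from -1 (blue) to 1 (red). Tgm3 with Tgm6 is the reddest pair at 0.83, and the rows of Krtap8-1 and Mt4 are paler, with Tchh at 0.06 and -0.02.

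The cells lay toward both ends in the number of the 10 genes they held. From 7 to 10 were seen in 52.3% of cells, 0 to 3 in 32.6% and 4 to 6 in only 15.1% (58 cells). Median genes seen were 7483, 6806 and 8173.5 in these 3 sets, so the set with the fewest of the 10 also had the fewest genes seen, and the part of this in the counts was not tested. By plate the share with 7 or more ran from 42.7% to 79.01%, the latter on P2-1, and without P2-1 it was 45.2%. All 10 were seen in 14 cells. In the P25 to P27 matrix no cell held more than 3, and in the papilla 6 cells held 4 or more.

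**Figure D3:**
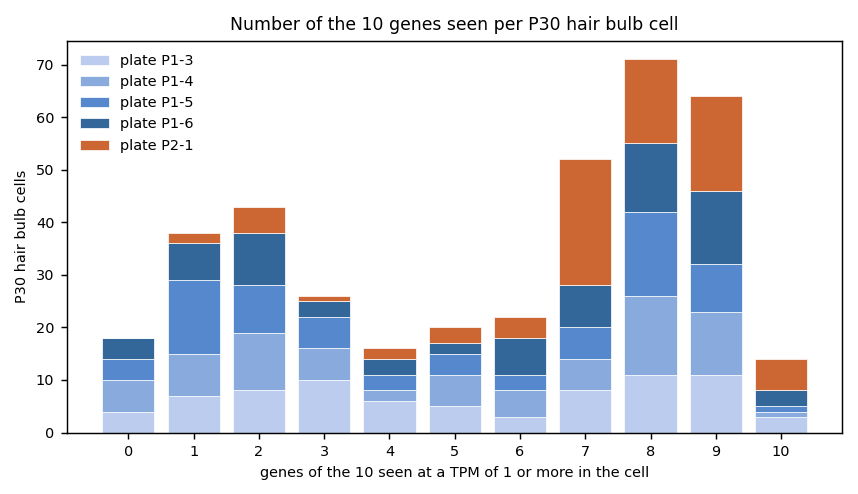
Number of P30 hair bulb cells (y axis) by how many of the 10 genes were seen at a TPM of 1 or more (x axis), stacked by plate. Counts are high at 1 and 2 genes (38 and 43 cells), low at 4 (16) and high again at 8 (71), and plate P2-1 lies mostly at 7 or more.

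Cells with many of the 10 genes also held the medulla genes more often, and Krt15 and Lgr5 less often. Foxq1, a factor needed for the medulla, was seen in 98.01% of cells with 7 or more of the 10 and in 9.60% of cells with 3 or fewer, and Krt75, whose keratin is made in the medulla and the companion layer, in 98.5% and 21.6%. Krtap15 was in 72.1% and 1.60%. Ivl, a precursor of the cornified envelope, was in 84.6% and 12.8%. Trp63, Itgb4, Cdh3 and Itga6, which mark basal cells, were in 98.5% or more of the first set and 68% to 74.4% of the second. Krt15 and Lgr5 of the bulge and lower follicle, picked after their values were seen, were in 13.4% and 1.99% of the first set and 57.6% and 38.4% of the second. Of the 16 cycle genes, all but Tk1 and Top2a were seen in a smaller share of the first set than of the second. Mcm2, which loads on DNA before replication, was in 53.2% and 66.4%, and Tk1 in 81.6% and 56%. In cells with 4 to 6 of the 10 genes, Mcm2 was in 75.9% and Tk1 in 77.6%. Over all P30 bulb cells the 16 cycle genes had a median rho of -0.35 with Tgm6, -0.26 with Tchh and -0.04 with Krtap8-1.

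Other cell types moved with this count. At least 3 of the 11 pigment cell markers were seen in 92.5% of cells with 7 or more of the 10 genes, with a summed level of 45.7 to 15248 TPM and a median of 1041. In cells with 3 or fewer the share was 31.2%, and the sum ran from 0 to 8352 with a median of 10.6. No marker was at 0 throughout the P30 bulb. Gpnmb was seen in 97.5% of the cells with Tgm6 and 38.9% of those without it, Mlana in 72.4% and 16.2%, and Sox10, which marks the pigment cells themselves, in 27.1% and 9.73%. Kit went the other way, with 27.6% and 38.4%. Among the P30 bulb cells with under 3 pigment markers, 12.9% held 7 or more of the 10 genes, the median rho was 0.43, Tgm6 was seen in 15.5% and Padi3 in 62.1%. At least 3 of 6 fibroblast and muscle markers were seen in 30.4% of cells with 3 or fewer of the 10 genes and 5.97% of cells with 7 or more. At least 3 keratinocyte markers were in 76% and 100% of them. The part of pigment cells, and of other cells, in these patterns was not tested.

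Tchh and Krtap8-1, a sheath and medulla gene and a cortex gene, were hardly correlated in level, with a rho of 0.06. Krtap8-1 was still seen in 45.7% of the P30 bulb cells with Tchh and 31.25% of those without it. For Mt4 these shares were 30.3% and 23.9%. By plate the rho of Tchh with Krtap8-1 ran from -0.33 to 0.22. Tchh and Krtap8-1 were both seen in 24.7% of P30 bulb cells (95 cells), Tchh alone in 29.4%, Krtap8-1 alone in 14.3% (55 cells) and neither in 31.5%. In cells with both, their means were 113.3 TPM for Tchh and 101.6 for Krtap8-1. Cells with Krtap8-1 alone had a mean of 225.4 TPM of it, and cells with Tchh alone 142.05 of Tchh. At a TPM of 10 or more, a level that 2.67% of papilla cells reached for Tchh, both were seen in 46 cells, Tchh alone in 100 and Krtap8-1 alone in 79. Median genes seen were 7133 with Tchh alone, 8147 with Krtap8-1 alone, 7583 with both and 6897 with neither. Among the cells with under 3 pigment markers the rho was 0.31.

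**Figure D4:**
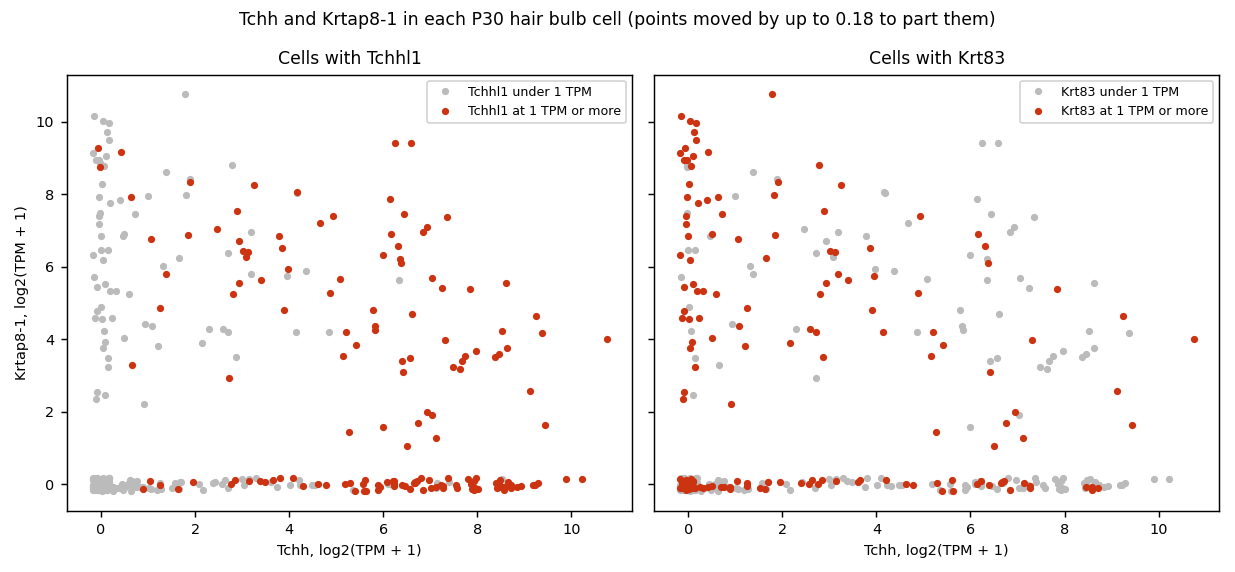
Tchh (x axis) against Krtap8-1 (y axis) in each P30 hair bulb cell, both as log2(TPM + 1), with points moved slightly to part them. Red marks cells with Tchhl1 on the left and with Krt83 on the right; Tchhl1 lies toward high Tchh and Krt83 toward cells with Krtap8-1.

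The 6 genes with the largest rho with Tchh were of mixed kinds. Tchhl1, a relative of Tchh, had the highest rho of all genes that could be named (0.81, by plate 0.72 to 0.86). Csta1, a protease inhibitor of cornified cells, had 0.75, Krt75 also 0.75, Ass1, an enzyme of arginine synthesis, 0.74, Fabp4, a fatty acid carrier, 0.73, and Sptssb, a subunit of sphingolipid synthesis, 0.73. Tchhl1 was seen in 66.4% of cells with Tchh alone (56.9 to 75.0), 10.9% of cells with Krtap8-1 alone (4.11 to 22.2), 75.8% of cells with both and 0.826% with neither. Tgm1 gave 61.9% (52.3 to 70.9) and 12.7% (5.27 to 24.5) in the first 2 of these, and S100a8 30.1% and 3.64%. Xdh and Uox gave 74.3% and 30.97% with Tchh alone and 45.5% and 18.2% with Krtap8-1 alone. Each of these 5 genes was seen in a larger share of cells with Tchh alone on all 5 plates.

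Krtap8-1 had weaker partners. The 6 highest were Slc16a10, an amino acid transporter (0.55), Crhr1, a receptor for corticotropin-releasing hormone (0.54), Ednra, an endothelin receptor (0.53), Hoxc13, a factor that drives hair keratin genes (0.52), Hmgcs1 of cholesterol synthesis (0.52) and Unc5b, a netrin receptor (0.51). Its 10 genes at 0.5 or more were 0.0781% of those compared. The hair keratins Krt83, Krt81 and Krt86 were in 74.5% (61 to 85.3), 52.7% and 56.4% of cells with Krtap8-1 alone, and in 31.9% (23.4 to 41.3), 12.4% and 13.3% of cells with Tchh alone. Some other hair keratins had the larger share with Tchh alone, but the intervals of each of those named next overlap between the classes. Krt35 was in 40% of cells with Krtap8-1 alone (27.02 to 54.1) and 51.3% with Tchh alone (41.7 to 60.8). Krt31 was in 9.09% and 16.8%, Krt39 in 3.64% and 10.6%, and Krt33a in 0% and 6.19%. Krtap7-1, another keratin-associated protein, was in 40% and 7.96%. Dsg4, a desmosomal cadherin of the hair, and Sox21, a factor of the hair cuticle, both picked after their values were seen, were in 40% and 85.5% with Krtap8-1 alone and 9.73% and 36.3% with Tchh alone. The shares of Krt83, Krt81, Krt86, Krtap7-1, Dsg4 and Sox21 were larger with Krtap8-1 alone on each of the 5 plates, and that of Krt35 was larger with Tchh alone on 4 of 5. Mt4 was in 58.2% and 19.5%, likewise on all 5. The same held on all 5 plates for genes of other lists, among them Trp63, Itgb4, Itga6 and S100a16. Cells with Krtap8-1 alone also had more genes seen, at a median of 8147 against 7133 with Tchh alone, and the part of this in the shares was not tested. Levels stayed low, with a mean of 21.7 TPM for Krt83 in cells with Krtap8-1 alone.

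Some genes went with both classes. Krt75 was in 85.8%, 80% and 95.8% of cells with Tchh alone, with Krtap8-1 alone and with both, and in 27.3% with neither. Foxq1 gave 77.9%, 81.8%, 95.8% and 15.7%, Padi4 58.4%, 70.9%, 77.9% and 14.9%, and Krtap15 51.3%, 49.1%, 77.9% and 4.96%. Of the inner root sheath keratins, Krt25, Krt27 and Krt28 had rho of -0.02, 0.28 and 0.05 with Tchh. Krt25 was seen in 47.8% of cells with Tchh alone and 74.5% with Krtap8-1 alone. Krt73 and Krt74 were picked after their values were seen. Krt73 was in 10.6% with Tchh alone (5.61 to 17.8) and 1.82% with Krtap8-1 alone (0.046 to 9.72), the other way but with overlapping intervals. Krt74 was in 1.77% (0.215 to 6.25) and 0% (0 to 6.49), too rare to show a direction. The proliferation marker Mki67 and the basal keratin Krt5, picked after their values were seen, were in 74.5% and 98.2% of cells with Krtap8-1 alone and in 38.1% and 67.3% with Tchh alone. At least 3 pigment markers were in 79.6% with Tchh alone, 89.1% with Krtap8-1 alone, 90.5% with both and 35.5% with neither.

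**Figure D5:**
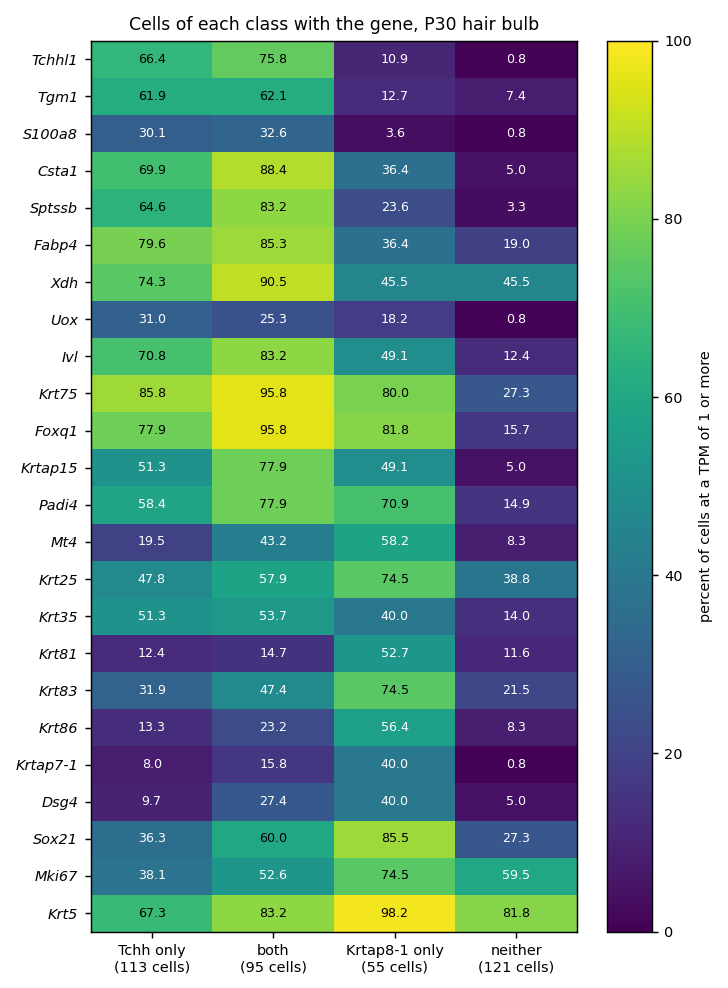
Percent of P30 hair bulb cells in which each of 24 genes was seen (colour and number), in columns for cells with Tchh alone, both, Krtap8-1 alone and neither. Tchhl1, Tgm1 and S100a8 are high in the 2 columns with Tchh, Krt81, Krt83, Krt86 and Krtap7-1 are highest with Krtap8-1 alone while Krt35 is not, and Krt75 and Foxq1 are high in all but the last column.

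The genes most like Tgm6 were of mixed kinds. It had rho of 0.85 with Gpnmb, a membrane glycoprotein of pigment cells and other cells that is itself among the pigment markers, 0.83 with Foxq1, 0.82 with Wnt3, a WNT ligand, 0.81 with Bpifc, 0.80 with Soat1, which esterifies cholesterol, and 0.80 with Krt75. All 6 were at 0.69 or more on every plate. Gpnmb had a mean of 507 TPM in the P30 bulb and was seen in 5.03% of matrix cells. Padi1, with its low level, reached 0.47 with Parvb, which links integrins to actin, 0.46 with S100a10 and Ass1, 0.45 with Krt23, a keratin, and Cdkn2b, an inhibitor of the cell cycle, and 0.45 with Notum, which inactivates WNT ligands.

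Uox and Xdh, the enzymes before Urah in the breakdown of purines, had rho of 0.58 and 0.57 with Tgm6, and 0.29 and 0.45 with Urah. Of the purine list, 2 of 5 genes seen in at least 10% of P30 bulb cells reached 0.5 with Tgm6. Of the medulla list 3 of 3 did, Krt75, Foxq1 and Krt17, and 2 of 3 with Tchh. Among the shaft keratins none of 4 reached it with Tgm6, Tchh or Krtap8-1. Of the inner root sheath list 1 of 9 did with Tgm6 and 2 with Tchh. Of all 12796 genes compared, 1.73% reached it with Tgm6, 0.813% with Tchh and 0.0781% with Krtap8-1. Beside such small shares, none of 4 says nothing about the shaft keratins.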

How the data were processed

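The authors deposited TPM values in 3 tables. Per the submitters' processing notes, reads were processed with Bowtie2 2.2.9 and RSEM 1.2.30 on mm10. The fields of the deposited dermal papilla table, of unit other, are divided by a slash and the letter t and were read as such. The authors' deposited cell type file, also unit other, gave 6 types. All 1119 columns matched a sample (199 cells of the P25 to P27 matrix, 384 of the P30 bulb and 337 of the papilla among them), no column was identical to another, and 0 were left out. Each column summed to about 1000000, and 92 of 46609 rows were spike-ins.

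The genes, the gene lists and the comparisons were chosen with earlier results of these data known. A gene counted as seen at a TPM of 1 or more. Levels were compared as mean log2(TPM + 1), and a difference of 1 or more was counted among genes seen in 10% of cells of 1 group. Co-expression was Spearman's rho over P30 bulb cells. With 1 sample a group no test was made, and intervals (95%, exact binomial) cover counting error only. Plates are the starts of the sample titles. Named are the 10 genes, the 6 genes with the largest rho with each of 4 of them (without predicted genes, pseudogenes and ribosomal RNA), up to 4 genes of each list by share of P30 bulb cells, and relatives of the 10. Others are marked as picked after their values were seen.

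Alternatives were other thresholds (above 0, 10), pseudocounts (0.1, 10), rescaling without 487 spike-in, ribosomal and mitochondrial rows, only cells with 2000 genes, leaving out each plate, and leaving out cells with 3 pigment markers, which kept 116 P30 bulb cells. The functions were tested on simulated data. Python 3.11.15, numpy 2.4.6, scipy 1.17.1, pandas 2.3.3 and matplotlib 3.10.9 were used, with GENCODE M21. Krt85, Krt87 and Rbpr2 were not analysed here. A further gene is not reported here.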

Additional observations from a re-analysis of the deposited data

Results flagged for a closer look

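Of 39 sets of plate values (share of cells and mean TPM of each gene over the 5 P30 bulb plates and the 4 papilla plates), 9 had 1 plate far from the others, where chance flags about 1 in 20 such sets. In the P30 bulb all 5 were plate P2-1, and 4 were in the papilla. Mt4 was seen in 56.8% of the cells of P2-1 and in 17.1% to 22.97% on the other plates. S100a3 was seen in 88.9% against 56.4% to 63.5%. Mean TPM on P2-1 was 62.1 for Tgm6, against 18.5 to 29.6, 29.4 for Tgm3, against 13.9 to 18.2, and 76.9 for Urah, against 42.8 to 50.8. P2-1 also had the most genes seen per cell among the 5 plates, with a median of 8082 against 6901 to 7420.5, and the part of this in the values was not tested.

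In the papilla the values are near 0. Padi1 had a mean of 0.00862 TPM on plate DP2 and 0 elsewhere. Tgm3 had a mean of 0.196 on DP6, against 0.0726 to 0.0906. Tgm6 was seen in 2.33% of the cells of DP5 and in none elsewhere, with a mean of 0.336 TPM.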

How the results depend on the processing

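No paired analysis was possible because each group is 1 sample and no test was made, and the plates of the P30 bulb and of the P25 to P27 matrix have no number in common. Of the values recomputed, 83.7% stayed within the plate spread (or within 1.5 times for counts), 54 moved and 0 changed direction among called values. Genes higher by 1 or more in the P30 bulb were 2.38% of all gene rows, and 9.61%, 0.322% and 8.32% with pseudocounts of 0.1 and 10 and after rescaling. Genes lower were 1.21%, and 1.87% and 0.3999% with those pseudocounts and 2.77% by the log2 ratio of mean TPM. Of the 10 genes, 7 were higher, and 9 with a pseudocount of 0.1 and after rescaling, 8 by the log2 ratio and 8 without plate 920mat. Of the 10, 1 was lower by the log2 ratio (Mt4) and 1 without plate P2-1 (Urah, -1.11), and leaving out plates gave 0 to 1. Without cells holding 3 pigment markers the median rho was 0.43, Tgm3 with Tgm6 had 0.71, Tchh with Krtap8-1 0.31, and cells with 7 or more of the 10 genes were 12.9%. Cells with both Tchh and Krtap8-1 were 29.2% above 0 TPM and 11.98% at 10 or more. The cause of these moves was not tested, except that a higher threshold or pseudocount gives fewer calls by construction. The alternatives for cells with 7 or more genes, the rescaled rho and the classes with 1 gene alone at 10 TPM were chosen after seeing the data. TPM keeps no depth, and 0 of 16 cells limits little.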
